A study of Mus musculus with 12 samples.

Results

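The genes described here are those of the YAP/TAZ and TEAD transcription module and of the Hippo kinase branch above it: Yap1, Wwtr1 (which encodes TAZ), Tead1, Tead2, Tead3, Tead4, Lats1, Lats2, Nf2 and Vgll4. They were chosen by symbol, 10 of the 21671 genes in the expression table. All 10 were found, all 10 had a usable value in all 12 libraries, and all 10 passed the expression minimum, as did 11011 genes in all. Total RNA was sequenced from 3T9MycER cells, an immortalized line of mouse embryonic fibroblasts that carries a fusion of Myc with the ligand-binding region of the estrogen receptor, so that Myc activity can be switched on with 4-hydroxytamoxifen (OHT). The 6 groups had 2 libraries each: cells given 20 µM verteporfin, a YAP-TEAD inhibitor, with OHT (VP + OHT) or without it (VP); cells given 50 µM Y27632, an inhibitor of the ROCK kinases, with OHT (Y27 + OHT) or without it (Y27); and solvent-treated cells with OHT (DMSO + OHT) or without it (DMSO). The inhibitors were given for 8 hours, and the labels state neither the dose nor the duration of OHT. All groups carry MycER and derive from a single cell line, the labels do not say whether replicate libraries came from separate cultures, and p-values therefore measure the spread between these libraries only. The series text speaks of quiescent and confluent cells and the study of serum-starved sparse cells for the inhibitors, so the density of these cultures is not known here.

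YAP and TAZ are transcriptional coactivators without a DNA-binding domain of their own, and they reach chromatin by binding the TEAD proteins. The kinases LATS1 and LATS2, switched on by the MST kinases and by the membrane-linked scaffold NF2 (Merlin), phosphorylate YAP and TAZ, which keeps them in the cytoplasm and marks them for degradation. VGLL4 competes with YAP for TEAD and so acts as a repressor of the same genes. In fibroblasts the pathway reads cell density, shape and the tension of the actin cytoskeleton, for which ROCK activity is needed. Most of this control acts on the proteins, and transcript levels, the only quantity measured here, do not show where the proteins are or whether they are phosphorylated.

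Promoter sequence is shown for Yap1, the coactivator gene whose transcript was higher with OHT in DMSO, and for Tead2 and Vgll4, which were both lower with VP and, in the absence of OHT, both higher with Y27. The windows are the 250 bases before the annotated start, from RefSeq on GRCm38.p6 (the study's own build was mm9), written 5′ to 3′ on the gene's strand. Capitals mark 2 motifs searched on both strands, which do not overlap each other in these windows: the palindrome CACGTG, an E-box that Myc-Max can bind, and GGAATG or its reverse complement CATTCC, the core bound by TEAD proteins.
Yap1 (chr9:8004597-8004846, minus strand): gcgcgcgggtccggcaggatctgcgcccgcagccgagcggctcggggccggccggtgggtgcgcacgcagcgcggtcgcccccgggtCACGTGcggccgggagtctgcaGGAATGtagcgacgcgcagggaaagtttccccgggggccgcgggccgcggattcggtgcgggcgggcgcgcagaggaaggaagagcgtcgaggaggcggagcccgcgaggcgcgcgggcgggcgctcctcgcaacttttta
Tead2 (chr7:45215542-45215791, plus strand): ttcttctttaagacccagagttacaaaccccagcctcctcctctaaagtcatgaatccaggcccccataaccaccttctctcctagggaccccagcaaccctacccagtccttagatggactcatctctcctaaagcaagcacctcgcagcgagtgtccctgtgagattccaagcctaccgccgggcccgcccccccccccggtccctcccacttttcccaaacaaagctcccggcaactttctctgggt
Vgll4 (chr6:114969204-114969453, minus strand): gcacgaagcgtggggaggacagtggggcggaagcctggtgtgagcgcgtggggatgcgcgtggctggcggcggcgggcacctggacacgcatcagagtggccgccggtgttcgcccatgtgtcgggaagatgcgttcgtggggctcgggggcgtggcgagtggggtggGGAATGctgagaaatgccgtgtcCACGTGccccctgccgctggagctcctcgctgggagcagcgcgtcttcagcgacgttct
The Yap1 window held 1 CACGTG, beginning 163 bases before the start, and 1 TEAD core, beginning 141 bases before it. The Vgll4 window likewise held 1 of each, at 59 and 82 bases, and the Tead2 window held neither. The windows of Nf2, the other member higher with OHT in DMSO, are not shown and held neither motif. Of 32851 promoter windows of this length, 6.02% held the E-box and 12.6% the TEAD core. Windows were found for 8 of the 10 members, 13 windows in all, of which 3 held an E-box (Yap1, Lats2 and Vgll4) and 6 a TEAD core (Yap1, Vgll4, and 2 windows each of Wwtr1 and Tead3). Both Wwtr1 windows overlap and share the same match, and the distinct TEAD matches of the members number 6. A match is a description of the letters and not evidence that a factor was bound.

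Levels are RPKM, reads scaled to the length of the gene and the size of the library. The libraries held 21857777 to 30856488 reads, with 30.2% to 35.8% of them in genes, and the members had 61 to 3276 reads each in a library. The decimal sign was missing from all deposited values of 1 or more and was restored by arithmetic, aided by likeness between libraries and groups. For the members the restored gene lengths were 0.598 (Tead3) to 1.18 times (Vgll4) the annotated exon length (GENCODE vM21, GRCm38). No value of a member came near the 1.8 reads per base that was the highest in the table for genes of at least 1000 bases (highest 0.622, Wwtr1). The readout and marker genes described below were not compared with this value. The marker Vim, at 46.9 to 65.4 RPKM, and the readout Cyr61 stood above Wwtr1 in level and may lie nearer to it. Whether their changes are understated for that reason was not tested. Exons of Lats2 share 2955 bases with the gene model Gm49361 on the same strand in the GRCm38 annotation, Yap1 shares 116 bases with the antisense model Gm20416 and Tead2 shares 13 with the antisense gene Cd37. The sources used here do not say whether counting used strand, so reads in those stretches cannot be assigned with certainty. The fibroblast label was borne out by 8 of 9 markers above the expression minimum, with Thy1 at 0 to 0.0237 RPKM. No epithelial (0 of 6) or endothelial (0 of 5) marker passed the minimum, and of 8 leukocyte markers only Cd68 and Cd14 did.

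In DMSO cells Wwtr1 was the most abundant member at 18.7 and 17.4 RPKM, more than Yap1 at 8.59 and 8.14 RPKM in the same libraries. The kinases followed, Lats1 at 12.5 and 11.4 RPKM and Lats2 at 11.0 and 10.4 RPKM, and then Nf2 at 10.1 and 8.61 RPKM. Of the TEAD genes Tead1 stood at 9.01 and 8.78 RPKM, Tead2 at 8.33 and 8.17, Tead3 at 6.43 and 6.11, and Tead4 at 4.31 and 4.02. Vgll4 was lowest, at 3.84 and 3.57 RPKM. In this order Nf2 and Tead1 overlapped, and so did Yap1 and Tead2, while the other neighbours did not overlap in their 2 libraries. Wwtr1 ranked first and Lats1 second in all 6 groups. The lowest rank belonged to Vgll4 in the VP and DMSO groups with and without OHT, and to Tead4 in both Y27 groups. Between the highest and the lowest group mean, on the log2(RPKM + 1) scale, Tead4 spanned the widest range (1.47), followed by Vgll4 (1.30) and Tead2 (0.99), and Yap1 and Wwtr1 the narrowest (0.35 each).

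**Figure D1:**
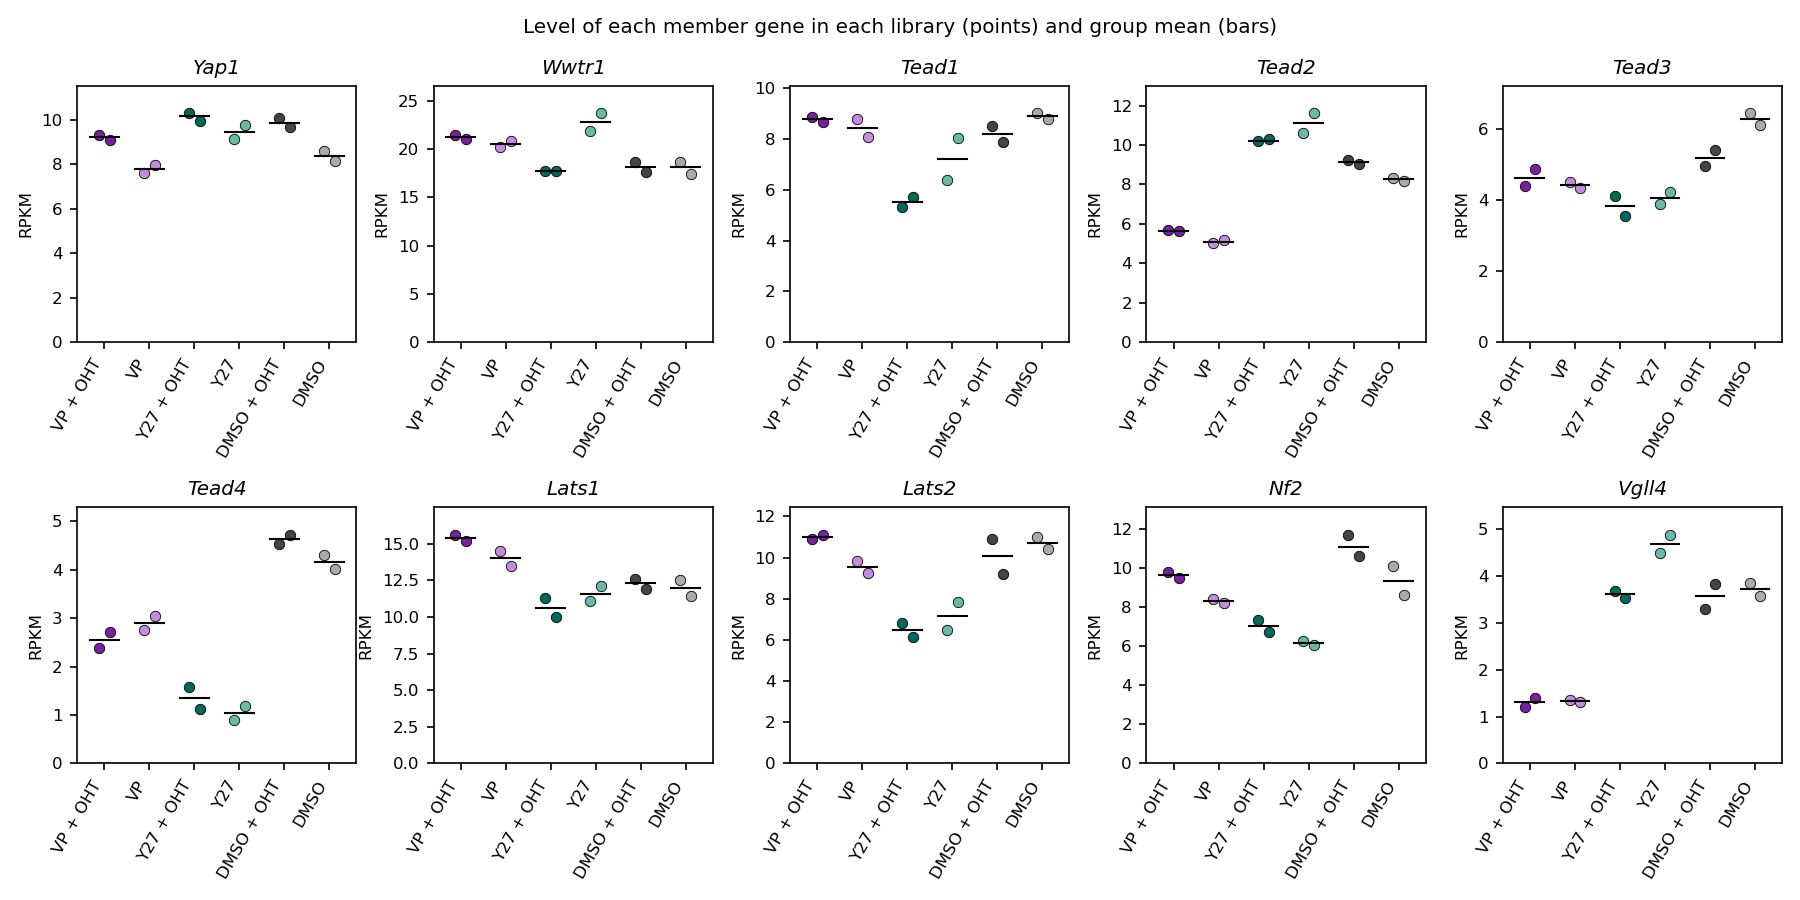
RPKM of the 10 members (vertical axis, starting at 0) in each of the 12 libraries, by group; points are libraries and bars are group means. Vgll4 sits between 1.2 and 1.4 RPKM in all 4 libraries with VP and Tead4 between 0.897 and 1.58 RPKM in all 4 libraries with Y27, both below every DMSO library.

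With VP, the repressor gene Vgll4 and the TEAD genes other than Tead1 were lower, while Wwtr1 and Lats1 were slightly higher. Of the 10 members 6 passed the test in VP against DMSO, 2 higher and 4 lower, at a background of 67.8% of all genes tested (26.9% higher and 40.9% lower), so the number of members called is near the share for any gene. The median log2 change was -0.15 over the members and -0.08 over all genes tested. Vgll4 had 1.35 and 1.31 RPKM in VP, against 3.84 and 3.57 RPKM in DMSO. The VP mean was 0.358 times that of DMSO, which gave a log2 change of -1.01 (SE 0.08, adjusted p from limma = 1.8e-07). With OHT present the same gene had 1.2 and 1.4 RPKM in VP + OHT, against 3.30 and 3.82 RPKM in DMSO + OHT (log2 change -0.98, SE 0.08, adjusted p = 2.9e-07). The groups did not overlap in either pair, which for 2 libraries a group is a description and no test.

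Tead2, which encodes a TEAD factor best known from early embryos, had 5.02 and 5.15 RPKM in VP, against 8.33 and 8.17 RPKM in DMSO (log2 change -0.60, SE 0.06, adjusted p = 1.2e-06). The difference was alike with OHT, at 5.67 and 5.63 RPKM in VP + OHT, against 9.22 and 9.02 RPKM in DMSO + OHT (log2 change -0.61, SE 0.06, adjusted p = 1.4e-06). Tead4, which is required for the trophectoderm of the mouse embryo, had 2.76 and 3.05 RPKM in VP, against 4.31 and 4.02 RPKM in DMSO (log2 change -0.40, SE 0.10, adjusted p = 0.0038). In VP + OHT it had 2.38 and 2.72 RPKM, against 4.54 and 4.72 RPKM in DMSO + OHT (log2 change -0.67, adjusted p = 8.8e-05). All libraries with VP were below all libraries without an inhibitor for both genes.

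Tead3 had 4.49 and 4.34 RPKM in VP, against 6.43 and 6.11 RPKM in DMSO, and passed the test (log2 change -0.43, SE 0.08, adjusted p = 0.00043). In VP + OHT it had 4.38 and 4.86 RPKM, against 4.95 and 5.41 RPKM in DMSO + OHT, which did not pass (log2 change -0.14, adjusted p = 0.16). Whether these VP effects differ with OHT was tested by the interaction, which did not pass (0.29, SE 0.12, adjusted p = 0.20). Tead1, the TEAD gene highest in DMSO, had 8.78 and 8.08 RPKM in VP, against 9.01 and 8.78 RPKM in DMSO (log2 change -0.07, SE 0.09, adjusted p = 0.50), and the groups overlapped.

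The coactivator and kinase genes had smaller differences with VP, in the absence of OHT, than Vgll4, Tead2, Tead3 and Tead4. Wwtr1 had 20.2 and 20.8 RPKM in VP, against 18.7 and 17.4 RPKM in DMSO (log2 change 0.17, SE 0.07, adjusted p = 0.032). Yap1 had 7.60 and 7.96 RPKM in VP, against 8.59 and 8.14 RPKM in DMSO, without overlap but also without passing the test (log2 change -0.09, SE 0.06, adjusted p = 0.20). Lats1 had 14.5 and 13.5 RPKM in VP, against 12.5 and 11.4 RPKM in DMSO (log2 change 0.22, SE 0.07, adjusted p = 0.02). Its partner Lats2 had 9.82 and 9.25 RPKM in VP, against 11.0 and 10.4 RPKM in DMSO, and Nf2 had 8.44 and 8.23 RPKM in VP, against 10.1 and 8.61 RPKM in DMSO. Neither of these 2 genes passed (log2 changes -0.15 and -0.14, adjusted p = 0.14 and 0.11). The call for Wwtr1 was lost without DMSO replicate 2 (0.12, adjusted p = 0.18), VP replicate 1 (0.20, 0.06) or VP replicate 2 (0.15, 0.14), and in a fit of the DMSO and VP libraries alone (0.17, 0.052). That for Lats1 was lost without DMSO replicate 2 (0.16, adjusted p = 0.14) or VP replicate 1 (0.17, 0.13), and Nf2 passed without DMSO replicate 2 (-0.25, 0.019).

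In VP + OHT against DMSO + OHT 6 members passed again, 2 higher and 4 lower, at a background of 64.5% (25.4% higher and 39.1% lower). Besides Vgll4, Tead2 and Tead4, described above, these were Wwtr1, Lats1 and Nf2. Tead1 (0.09, adjusted p = 0.39) and Lats2 (0.12, 0.25) did not pass. Lats2 passed as higher under median-ratio scaling (0.22, adjusted p = 0.019) and quantile normalization (0.19, 0.029). Nf2 did not pass under either, so that 3 members were higher and 3 lower. Wwtr1 had 21.5 and 21.0 RPKM in VP + OHT, against 18.7 and 17.6 RPKM in DMSO + OHT (log2 change 0.22, SE 0.07, adjusted p = 0.01). Lats1 had 15.6 and 15.2 RPKM in VP + OHT, against 12.6 and 11.9 RPKM in DMSO + OHT (log2 change 0.31, SE 0.07, adjusted p = 0.0025), the highest values of that gene in the series. Nf2 had 9.82 and 9.51 RPKM in VP + OHT, against 11.7 and 10.6 RPKM in DMSO + OHT (log2 change -0.19, adjusted p = 0.048). Yap1 had 9.33 and 9.12 RPKM in VP + OHT, against 10.1 and 9.70 RPKM in DMSO + OHT (log2 change -0.09, adjusted p = 0.21). The Nf2 call did not hold in 8 of 11 alternatives (range of adjusted p 0.023 to 0.28), among them those leaving out replicate 1 of DMSO + OHT (-0.12, 0.28) or replicate 1 (-0.21, 0.098) or 2 (-0.17, 0.18) of VP + OHT. Wwtr1 lost its call without DMSO + OHT replicate 2 (0.18, adjusted p = 0.06) or VP + OHT replicate 1 (0.20, 0.068).

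Other cell markers moved with VP as well, and their part in the changes above was not tested. The summed level of the 9 fibroblast markers was 133 to 142 RPKM in VP, against 231 to 236 RPKM in DMSO. It was 129 to 136 RPKM in VP + OHT, against 210 to 242 RPKM in DMSO + OHT. Of the 8 tested 6 were lower in each comparison, where 40.9% (VP) and 39.1% (VP + OHT) of all genes were lower. The sum of the 8 leukocyte markers was 9.10 to 9.43 RPKM in VP, against 3.09 to 3.55 RPKM in DMSO, and came from Cd14 and Cd68. The defining leukocyte markers Ptprc (0 to 0.0388 RPKM), Emr1 (0 to 0.0279) and Lyz2 (0 to 0.0371) were at or near 0 in every library. The sum of the 4 smooth muscle markers was 22.2 to 24.9 RPKM in VP and 24.2 to 24.8 RPKM in VP + OHT, against 28.9 to 34.9 RPKM in DMSO + OHT and 29.2 to 32.1 RPKM in DMSO, and Acta2, which makes up most of it, was lower (log2 change -0.35, adjusted p = 0.0028 in VP against DMSO). In bulk RNA, fewer cells of a type and less RNA per cell cannot be told apart.

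**Figure D2:**
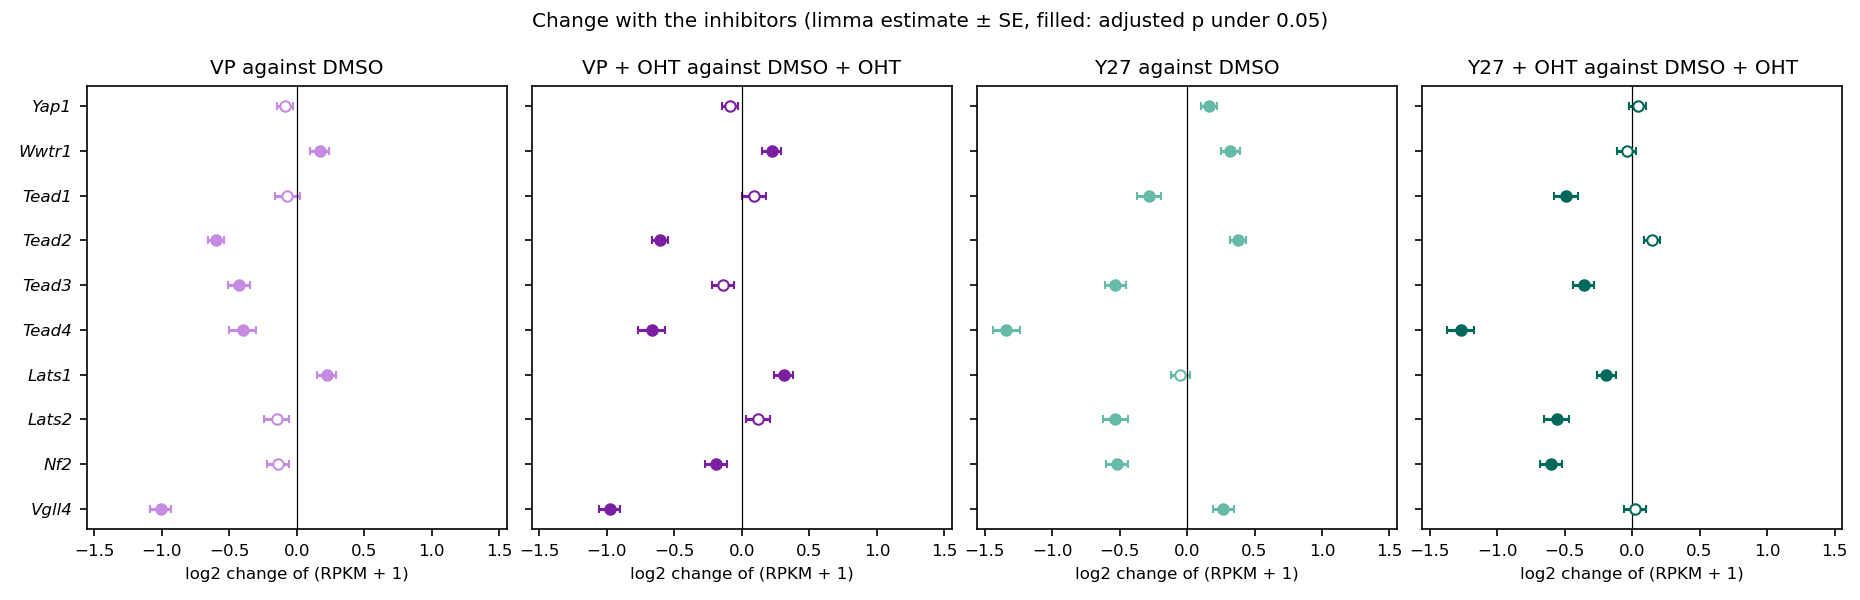
Log2 change of RPKM + 1 (horizontal axis) for the 10 members in the 4 comparisons with an inhibitor; points are limma estimates, bars are their standard errors, and filled points passed at an adjusted p under 0.05. Tead4 lies at -1.34 and -1.27 with Y27 and at -0.40 and -0.67 with VP, while Vgll4 lies at -1.01 and -0.98 with VP and at 0.27 and 0.02 with Y27.

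With Y27 in the absence of OHT the lower genes were Tead4, Tead3, Tead1, Lats2 and Nf2, and the higher ones Tead2, Wwtr1, Vgll4 and Yap1. These are 9 of the 10 members, 4 higher and 5 lower in Y27 against DMSO, at a background of 50.6% of all genes (17.2% higher and 33.5% lower). The median log2 change was -0.16 over the members and -0.07 over all genes tested. The comparison shares its DMSO libraries with that of VP. Tead4 had 0.897 and 1.19 RPKM in Y27, against 4.31 and 4.02 RPKM in DMSO. The Y27 mean was 0.25 times the DMSO mean (log2 change -1.34, SE 0.10, adjusted p = 7e-07), from as few as 61 reads in a library. In Y27 + OHT it had 1.58 and 1.12 RPKM, against 4.54 and 4.72 RPKM in DMSO + OHT (log2 change -1.27, SE 0.10, adjusted p = 1.7e-06). Because 1 is added before the logarithm, these log2 values understate the change of a gene this low, and limma-voom on the recovered reads gave the lowest of the alternatives, -1.99 for Y27 and -1.77 for Y27 + OHT.

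Tead3 had 3.87 and 4.22 RPKM in Y27, against 6.43 and 6.11 RPKM in DMSO (log2 change -0.53, SE 0.08, adjusted p = 0.00016). With OHT it had 4.12 and 3.53 RPKM in Y27 + OHT, against 4.95 and 5.41 RPKM in DMSO + OHT (log2 change -0.36, adjusted p = 0.0032). Tead1 had 6.37 and 8.04 RPKM in Y27, against 9.01 and 8.78 RPKM in DMSO (log2 change -0.28, SE 0.09, adjusted p = 0.018). These Y27 libraries lay further apart than those of the other groups for this gene, and the call was lost without Y27 replicate 1 (-0.13, adjusted p = 0.22) or DMSO replicate 1 (-0.26, 0.079). In Y27 + OHT Tead1 was at 5.33 and 5.72 RPKM, against 8.53 and 7.87 RPKM in DMSO + OHT, and that difference held in all 11 alternatives (log2 change -0.49, SE 0.09, adjusted p = 0.00055).

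Tead2 went the other way, with 10.6 and 11.6 RPKM in Y27, against 8.33 and 8.17 RPKM in DMSO (log2 change 0.38, SE 0.06, adjusted p = 0.00019). With OHT the values were 10.2 and 10.3 RPKM in Y27 + OHT, against 9.22 and 9.02 RPKM in DMSO + OHT, without overlap but just short of the threshold (log2 change 0.15, SE 0.06, adjusted p = 0.057). Vgll4 had 4.48 and 4.87 RPKM in Y27, against 3.84 and 3.57 RPKM in DMSO (log2 change 0.27, SE 0.08, adjusted p = 0.016). With OHT it overlapped its control, at 3.68 and 3.53 RPKM in Y27 + OHT, against 3.30 and 3.82 RPKM in DMSO + OHT (log2 change 0.02, adjusted p = 0.88).

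Wwtr1 had 21.9 and 23.7 RPKM in Y27, against 18.7 and 17.4 RPKM in DMSO (log2 change 0.32, SE 0.07, adjusted p = 0.0012). Its values were 17.7 and 17.7 RPKM in Y27 + OHT, against 18.7 and 17.6 RPKM in DMSO + OHT (log2 change -0.04, adjusted p = 0.70). Yap1 had 9.16 and 9.80 RPKM in Y27, against 8.59 and 8.14 RPKM in DMSO (log2 change 0.16, SE 0.06, adjusted p = 0.04), and 10.3 and 9.98 RPKM in Y27 + OHT, against 10.1 and 9.70 RPKM in DMSO + OHT (log2 change 0.04, adjusted p = 0.68). Without DMSO replicate 2 the calls in Y27 against DMSO were lost for Yap1 (0.13, adjusted p = 0.17) and Vgll4 (0.23, 0.10), and likewise without Y27 replicate 2 (Yap1 0.12, 0.21; Vgll4 0.22, 0.096). A fit of the DMSO and Y27 libraries alone gave Yap1 an adjusted p of 0.08.

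Of the kinase branch, Lats2 and Nf2 were lower with Y27 and Lats1 did not pass in the absence of OHT. Lats2 had 6.49 and 7.82 RPKM in Y27, against 11.0 and 10.4 RPKM in DMSO (log2 change -0.53, SE 0.09, adjusted p = 0.00031), and 6.81 and 6.16 RPKM in Y27 + OHT, against 10.9 and 9.22 RPKM in DMSO + OHT (log2 change -0.56, adjusted p = 0.00027). Nf2 had 6.29 and 6.06 RPKM in Y27, against 10.1 and 8.61 RPKM in DMSO (log2 change -0.52, SE 0.08, adjusted p = 1e-04), and 7.35 and 6.71 RPKM in Y27 + OHT, against 11.7 and 10.6 RPKM in DMSO + OHT (log2 change -0.60, adjusted p = 5.1e-05). All 4 Y27 libraries were below all 4 DMSO libraries for both genes. Lats1 had 11.1 and 12.1 RPKM in Y27, against 12.5 and 11.4 RPKM in DMSO (log2 change -0.05, adjusted p = 0.63). In Y27 + OHT it had 11.3 and 9.97 RPKM, against 12.6 and 11.9 RPKM in DMSO + OHT (log2 change -0.19, adjusted p = 0.048), a call that 8 of 11 alternatives did not keep (range of adjusted p 0.027 to 0.36).

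In Y27 + OHT against DMSO + OHT 6 members passed, all of them lower (Tead1, Tead3, Tead4, Lats1, Lats2 and Nf2), at a background of 43.2% called in either direction and 32.9% called lower. The direction of this count depends in part on scaling. Under median-ratio scaling Yap1 (0.15, adjusted p = 0.02) and Tead2 (0.27, 0.0012) passed as higher and Lats1 no longer passed (-0.08, 0.28). Under quantile normalization Yap1 (0.15, 0.019), Tead2 (0.27, 0.0016) and Vgll4 (0.18, 0.047) passed as higher and Lats1 did not pass (-0.11, 0.11). The smooth muscle marker sum moved with Y27 too, at 14.9 to 15.4 RPKM in Y27 and 15.3 to 15.6 RPKM in Y27 + OHT, against 28.9 to 34.9 RPKM in DMSO + OHT and 29.2 to 32.1 RPKM in DMSO, almost all of it from Acta2, with Myh11 and Des near 0. The fibroblast marker sum was 275 to 286 RPKM in Y27, against 231 to 236 RPKM in DMSO. It was 237 to 270 RPKM in Y27 + OHT, against 210 to 242 RPKM in DMSO + OHT. Of the 8 tested 4 were higher in Y27 (17.2% of all genes) and 3 in Y27 + OHT (1134 of 11011 genes). None was lower (33.5% and 32.9% of all genes). The sum holds genes of high level, such as Vim at 46.9 to 65.4 RPKM, whose reads per base were not compared with the highest of all genes. The Y27 libraries held 21857777 and 24340549 reads and the DMSO libraries 26771313 and 28288317. The part of read depth in this difference was not tested. The part of these markers in the changes was not tested.

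Summed over the 4 TEAD genes, the level was 21.0 and 20.6 RPKM in VP, against 28.1 and 27.1 RPKM in DMSO, and 21.7 and 25 RPKM in Y27, against the same DMSO values. The sums were 21.3 and 21.9 RPKM in VP + OHT and 21.2 and 20.7 RPKM in Y27 + OHT, against 27.2 and 27 RPKM in DMSO + OHT. The totals were thus lower in every library with an inhibitor, but the makeup differed between them. Tead2 made up 23.8% and 25% of the TEAD sum in VP, against 29.6% and 30.2% in DMSO, and 48.7% and 46.2% in Y27, against the same DMSO shares. Tead1 held the largest share in VP, 41.7% and 39.2%, as it also did in DMSO, at 32.1% and 32.4%. Tead4 held 4.13% and 4.75% in Y27, against 15.4% and 14.9% in DMSO. These shares are a description of 2 libraries a group, with no test.

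**Figure D3:**
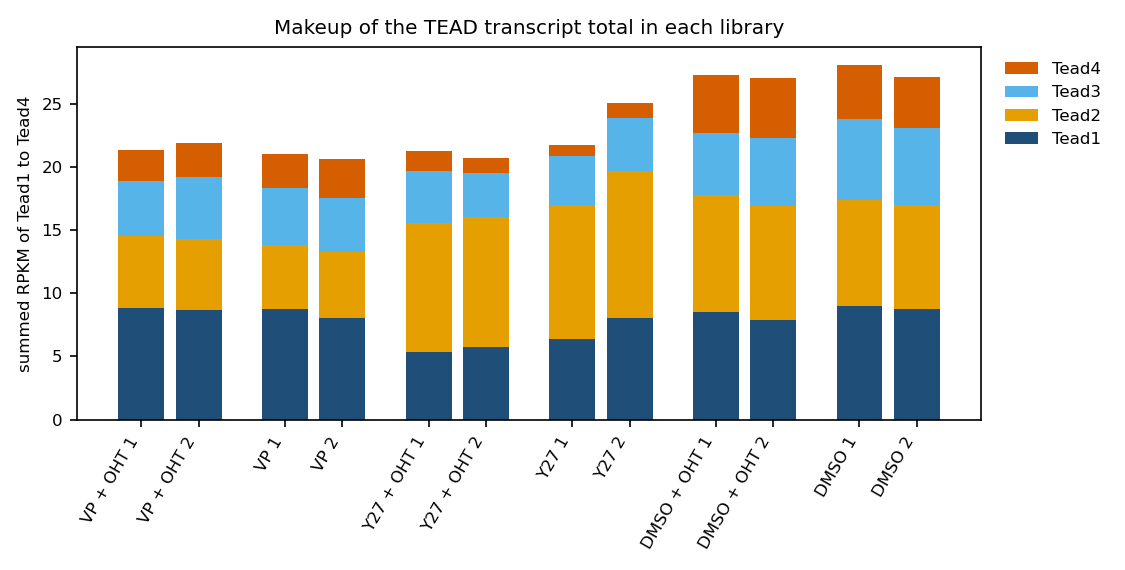
Summed RPKM of Tead1, Tead2, Tead3 and Tead4 (vertical axis) in each of the 12 libraries, with the part of each gene stacked. The sums, without further scaling, lie between 20.6 and 25 RPKM in the 8 libraries with an inhibitor and between 27 and 28.1 RPKM in the 4 others. Tead2 makes up 46.2% to 49.8% of the sum in the Y27 libraries.

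Ratios within a library describe the balance of related members. Wwtr1 over Yap1 was 2.65 and 2.61 in VP and 2.39 and 2.42 in Y27, against 2.18 and 2.14 in DMSO. With OHT it was 2.30 and 2.31 in VP + OHT and 1.71 and 1.77 in Y27 + OHT, against 1.85 and 1.82 in DMSO + OHT. Lats2 over Lats1 was 0.676 and 0.683 in VP and 0.587 and 0.649 in Y27, against 0.882 and 0.912 in DMSO. The values with OHT were 0.695 and 0.73 in VP + OHT and 0.605 and 0.618 in Y27 + OHT, against 0.862 and 0.774 in DMSO + OHT. Because Lats2 shares exon bases with Gm49361, its ratio to Lats1 is uncertain. These ratios, too, were given no test.

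With OHT in the absence of inhibitors, Yap1 and Nf2 were higher and Tead3 lower. In DMSO + OHT against DMSO 3 of 10 members passed, 2 higher and 1 lower, at a background of 34.1% (24.1% higher and 10.1% lower). Yap1 had 10.1 and 9.70 RPKM in DMSO + OHT, against 8.59 and 8.14 RPKM in DMSO (log2 change 0.22, SE 0.06, adjusted p = 0.015). Nf2 had 11.7 and 10.6 RPKM in DMSO + OHT, against 10.1 and 8.61 RPKM in DMSO (log2 change 0.23, SE 0.08, adjusted p = 0.032). Tead3 was lower, with 4.95 and 5.41 RPKM in DMSO + OHT, against 6.43 and 6.11 RPKM in DMSO (log2 change -0.24, SE 0.08, adjusted p = 0.041). None of these groups overlapped, but neither did those of Tead1, Tead2 and Tead4, which were not called. No share over all genes is given for overlap, here or elsewhere, so a lack of overlap is a description only. Without DMSO replicate 2 or DMSO + OHT replicate 1 no member passed, with Yap1 at 0.18 and 0.19 (adjusted p = 0.094 in both). Scaling turned the balance of this count. Quantile normalization took away the calls of Yap1 (0.10, adjusted p = 0.10) and Nf2 (0.12, 0.14) and added Tead1 (-0.24, 0.033), Lats2 (-0.23, 0.02) and Wwtr1 (-0.12, 0.024), so that 0 members were higher and 4 lower. Median-ratio scaling took away the call of Nf2 (0.14, 0.085).

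In VP-treated cells OHT changed 0 of 10 members past the threshold (limma), at a background of 5.74% of genes, and 2 members had an unadjusted p under 0.05 (Yap1 and Nf2), as did 22.7% of all genes. Yap1 had 9.33 and 9.12 RPKM in VP + OHT, against 7.60 and 7.96 RPKM in VP, the same log2 change as in DMSO to 2 decimals (0.22, SE 0.06), with an adjusted p of 0.053. Limma-voom on the recovered reads called this gene (0.25, adjusted p = 0.029). In Y27-treated cells OHT was followed by lower levels of 3 members, at a background of 31.8% called in either direction and 11.9% called lower. Wwtr1 had 17.7 and 17.7 RPKM in Y27 + OHT, against 21.9 and 23.7 RPKM in Y27 (log2 change -0.35, SE 0.07, adjusted p = 0.0013). Tead1 had 5.33 and 5.72 RPKM in Y27 + OHT, against 6.37 and 8.04 RPKM in Y27 (log2 change -0.32, SE 0.09, adjusted p = 0.013), and Vgll4 had 3.68 and 3.53 RPKM, against 4.48 and 4.87 RPKM in Y27 (log2 change -0.30, SE 0.08, adjusted p = 0.015). Without Y27 replicate 2 Tead1 (-0.18, adjusted p = 0.14) and Vgll4 (-0.25, 0.093) were no longer called. Tead1 also lost its call without Y27 + OHT replicate 1 (-0.28, 0.083), and Vgll4 without Y27 + OHT replicate 2 (-0.28, 0.081), where Tead4 gained one (0.34, 0.045).

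Whether the response to OHT differed with an inhibitor was tested by the interaction in the same fit. It passed for 0 of 10 members with VP, at a background of 4.01%, and for 0 of 10 with Y27, at a background of 0.0727%. At an unadjusted p under 0.05 there were 2 with VP (Tead3 and Lats2) and 2 with Y27 (Wwtr1 and Tead2), against 18.1% and 9.35% of all genes, and limma-voom also called 0 in each. Wwtr1 had the largest estimate with Y27, -0.36 (SE 0.09, unadjusted p = 0.0021, adjusted p = 0.25). An effect of OHT on Wwtr1 that passed in Y27 and not in DMSO is therefore not shown to differ between them.

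**Figure D4:**
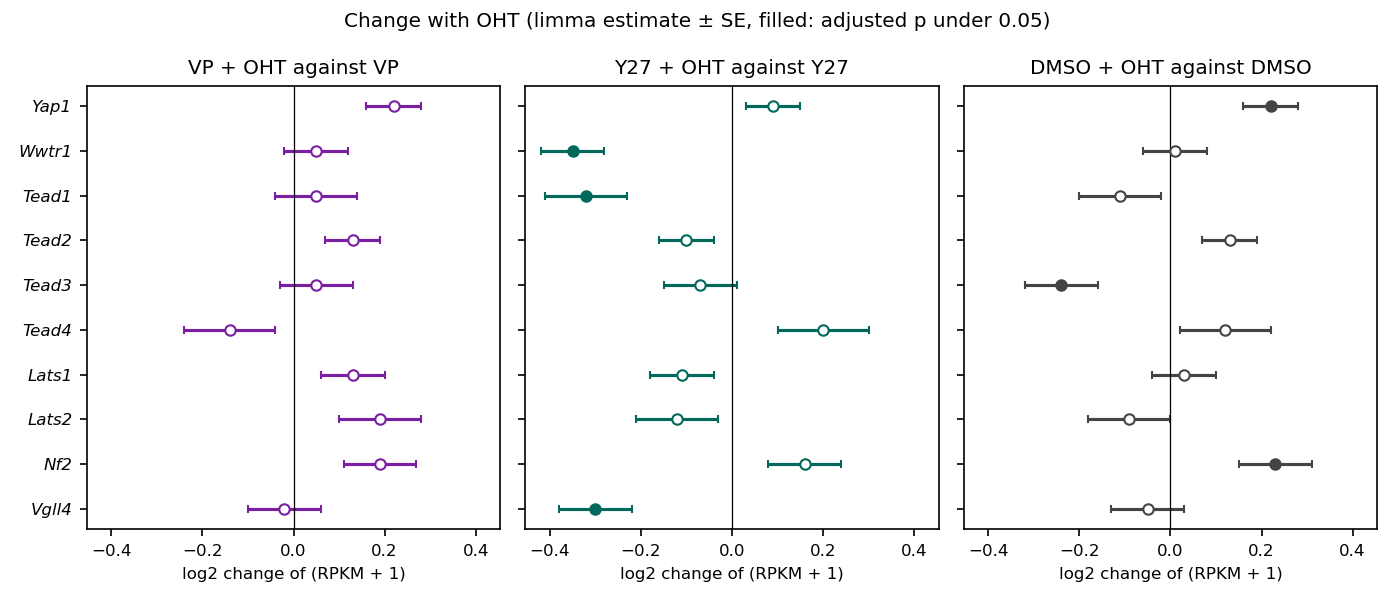
Log2 change of RPKM + 1 with OHT (horizontal axis) for the 10 members in VP-treated, Y27-treated and DMSO-treated cells; points are limma estimates, bars their standard errors, and filled points passed at an adjusted p under 0.05. Yap1 lies at 0.22 in VP and in DMSO and at 0.09 in Y27, and Wwtr1 lies at -0.35 in Y27, at 0.05 in VP and at 0.01 in DMSO.

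Around the members, 53 of 61 listed genes of the wider pathway passed the expression minimum. Of these, 10 were higher and 19 lower in VP against DMSO (54.7% called), 19 higher and 8 lower in Y27 against DMSO (50.9%), 17 higher and 15 lower in VP + OHT against DMSO + OHT (60.4%) and 8 higher and 12 lower in Y27 + OHT against DMSO + OHT (37.7%). These shares lie near or under the backgrounds given above. The counts per list that follow are small and are to be read against the same backgrounds, 26.9% of all genes higher and 40.9% lower in VP, and 17.2% higher and 33.5% lower in Y27. With OHT in DMSO 5 were higher and 1 lower (11.3%), at a background of 34.1% (24.1% higher and 10.1% lower). The median log2 change was 0.04, against 0.06 over all genes.

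In the core cassette of the MST kinases and their scaffolds (5 genes, all tested), Sav1, which encodes the scaffold of the MST kinases, was higher in all 4 comparisons with an inhibitor. It averaged 17.8 ± 1.5 RPKM in Y27 and 12.6 ± 1.5 RPKM in DMSO (SD, n = 2 each; log2 change 0.47, adjusted p = 0.00032), and 14.7 ± 0.086 RPKM in VP (log2 change 0.21, adjusted p = 0.032 against DMSO). Stk3, the MST2 kinase, was lower in VP at 15.3 ± 0.56 RPKM, against 18.2 ± 1.3 RPKM in DMSO (log2 change -0.24, adjusted p = 0.0057). Stk4, the MST1 kinase, was higher with OHT, at 10.9 ± 0.39 RPKM in DMSO + OHT and 8.68 ± 0.86 RPKM in DMSO (log2 change 0.30, adjusted p = 0.011).

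Of the kinases that act in parallel with the MST kinases or with LATS, 10 of 12 were tested, and 2 were higher and 5 lower in VP (all genes: 26.9% and 40.9%). Map4k3 averaged 11.8 ± 0.19 RPKM in VP and 23.0 ± 0.94 RPKM in DMSO (log2 change -0.90, adjusted p = 2.1e-08), while Stk38l, the NDR2 kinase related to LATS, averaged 8.31 ± 0.17 RPKM in VP and 4.25 ± 0.074 RPKM in DMSO (log2 change 0.83, adjusted p = 2.3e-07). In Y27 5 were higher and 0 lower (all genes: 17.2% and 33.5%), among them Mink1 and Stk38 (log2 change 0.46 each, adjusted p = 0.00026 and 0.00014). The 3 LIM proteins that hold LATS in check at junctions were all lower in VP, with Ajuba at 15.6 ± 0.011 RPKM in VP and 22.2 ± 0.83 RPKM in DMSO (log2 change -0.48, adjusted p = 0.00019) and Limd1 at -0.43 (adjusted p = 9.4e-05). In Y27 2 of the 3 were lower, Ajuba (-0.35, adjusted p = 0.0038) and Limd1 (-0.29, 0.0032).

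Among regulators at junctions and the membrane, 11 of 12 were tested, and 2 were higher and 6 lower in VP. The protocadherin genes Fat4 and Fat1 fell furthest, Fat4 to 7.40 ± 1.4 RPKM in VP, against 30.9 ± 0.28 RPKM in DMSO (log2 change -1.93, adjusted p = 1.2e-09), and Fat1 to 9.85 ± 1.2 RPKM in VP, against 33.0 ± 1.1 RPKM in DMSO (log2 change -1.65, adjusted p = 6.8e-09). In Y27 2 were higher and 4 lower, led by Wwc1 (KIBRA, a partner of NF2) at 1.67 ± 0.076 RPKM in Y27 and 5.99 ± 0.70 RPKM in DMSO (log2 change -1.38, adjusted p = 1.1e-06) and Amotl2 (angiomotin-like, which binds YAP) at 20.8 ± 1.0 RPKM in Y27 and 34.7 ± 1.2 RPKM in DMSO (log2 change -0.71). Wwc1 was also the listed gene that rose most with OHT, to 10.1 ± 0.30 RPKM in DMSO + OHT, against 5.99 ± 0.70 RPKM in DMSO (log2 change 0.68, adjusted p = 0.00068), and to 6.12 ± 1.2 RPKM in Y27 + OHT, against 1.67 ± 0.076 RPKM in Y27 (log2 change 1.41, adjusted p = 1.4e-06). It was the only pathway gene called with OHT in VP-treated cells (log2 change 0.49, adjusted p = 0.026).

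The 14-3-3 proteins, which hold phosphorylated YAP and TAZ in the cytoplasm, had 4 of 7 higher and 0 lower in Y27 (all genes: 17.2% and 33.5%), led by Ywhah at 35.1 ± 0.87 RPKM in Y27 and 20.7 ± 2.1 RPKM in DMSO (log2 change 0.74, adjusted p = 8.9e-06). In VP 2 were higher and 1 lower, with Ywhag at 21.6 ± 0.088 RPKM in VP and 13.9 ± 0.86 RPKM in DMSO (log2 change 0.60, adjusted p = 8.3e-06). Of 4 genes for the phosphorylation-dependent degradation of YAP and TAZ, Csnk1e, a casein kinase, was higher in all 4 comparisons with an inhibitor, and Btrc, the substrate receptor of the ubiquitin ligase, was lower in VP (log2 change -0.50, adjusted p = 0.00024). The STRIPAK complex, which opposes the MST kinases, had 2 of 12 tested genes higher and 1 lower in VP and 3 higher and 1 lower in Y27. Its subunit gene Strn3 was higher in VP (log2 change 0.28, adjusted p = 0.0016) and lower in Y27 (-0.32, 0.00093). Of the other Vestigial-like genes only Vgll3 passed the minimum, at 14.0 and 14.4 RPKM in VP and 17.9 and 19.2 RPKM in Y27, against 29.2 and 26.9 RPKM in DMSO (log2 changes -0.93 and -0.57, adjusted p = 2e-07 and 5.5e-05). Unlike its relative Vgll4 it was thus lower with each inhibitor.

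Of the common readouts of YAP-TEAD activity, Ctgf and Cyr61 were lower in Y27, and Ctgf was lower in VP. Ctgf, which encodes a matricellular growth factor, had 2.23 and 2.69 RPKM in Y27, against 22.6 and 19.4 RPKM in DMSO (log2 change -2.67, SE 0.15, adjusted p = 6.5e-08). In VP it had 17.4 and 13.8 RPKM, against the same DMSO values (log2 change -0.41, SE 0.15, adjusted p = 0.03). Ankrd1, a nuclear ankyrin-repeat protein, had 2.02 and 1.73 RPKM in VP, against 0.466 and 0.721 RPKM in DMSO, and 0.181 and 0.116 RPKM in Y27, against the same DMSO values. It reached the expression minimum only through the VP libraries (its mean over the other 8 was 0.322 RPKM), so these values are a description with no test. Cyr61, named to complete the list after its values were seen, had 44.0 and 47.3 RPKM in VP, against 49.7 and 48.0 RPKM in DMSO (log2 change -0.10, adjusted p = 0.39), and 35.2 and 36.4 RPKM in Y27 (log2 change -0.44, adjusted p = 0.0021). Its levels were the highest of these readouts, and its reads per base were not compared with the highest of all genes. Whether its changes are understated for that reason was not tested. For OHT the limma adjusted p of Ctgf and Cyr61 lay between 0.58 and 1 in VP-treated, Y27-treated and DMSO-treated cells.

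**Figure D5:**
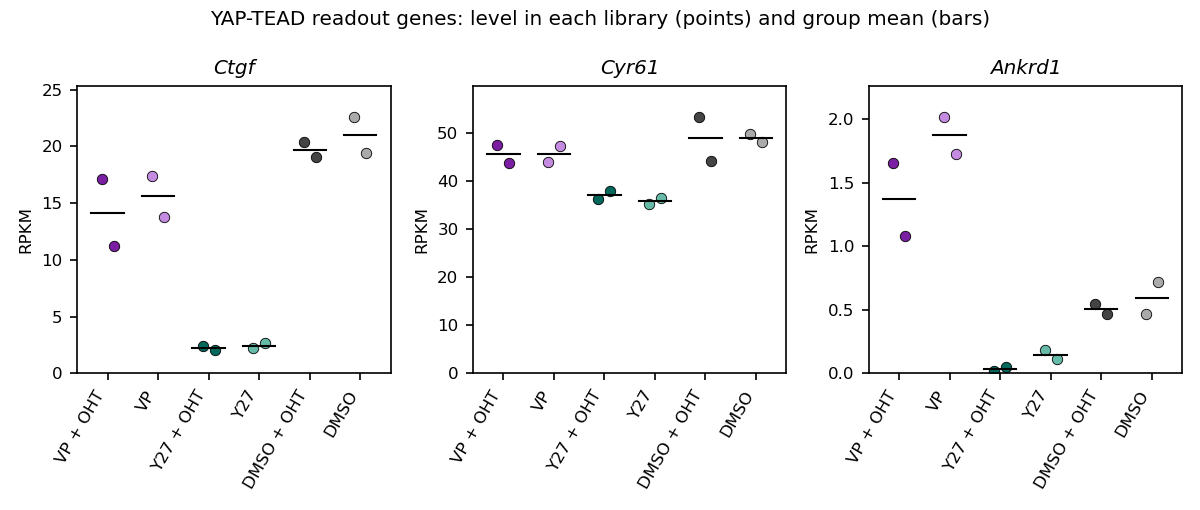
RPKM of Ctgf, Cyr61 and Ankrd1 (vertical axis, starting at 0) in each of the 12 libraries; points are libraries and bars are group means. Ctgf lies between 2.11 and 2.69 RPKM in the Y27 libraries and between 11.2 and 17.4 RPKM in the VP libraries, while Ankrd1 is highest in the VP libraries.

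For the 2 members with the widest range, the 3 genes with the most alike pattern were found among 11010 others by the root mean square difference of their 6 group means on log2(RPKM + 1), each centred on its own mean. For Tead4 these were Blvra (0.09), Atoh8 (0.12) and Hacd1 (0.12). Blvra, the gene of biliverdin reductase A, averaged 3.51 RPKM in VP and 1.57 RPKM in Y27, against 5.03 RPKM in DMSO. For Vgll4 they were Zfp882 (0.03), Lox (0.04) and Tmem50a (0.04). Lox, which cross-links collagen, averaged 18.1 RPKM in VP and 45.8 RPKM in Y27, against 39.4 RPKM in DMSO. These are likenesses over 6 group means, chosen as the closest of many genes, and carry no test.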

How the data were processed

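RNA-seq was done on 12 libraries of 3T9MycER fibroblasts, prepared from total RNA without selection on poly-T beads. According to the submitters' processing notes the reads were aligned to mm9 with TopHat2 2.0.8 and SAMtools and counted with featureCounts 1.4.5-p1. The authors deposited RPKM per library for 21671 genes, and a smaller table whose 8 columns were identical to 8 of these. Of 260052 deposited RPKM values 46.4% lacked their decimal sign (those of 1 or more). The sign was put back by arithmetic on what 1 read is worth in each gene and library, without the authors' fold changes. The annotated length (GENCODE vM21) and any intact values of the same gene were used. Of the members only Tead4 had a value under 1 RPKM. The lowest place giving whole reads was moved up 10-fold where a library then lay with its replicate, or a group with its OHT partner. Gene lengths that gave a smaller spread of the group means were favoured. Likeness between libraries and groups thus helped to place the sign. Left out were 138 genes (26 symbols turned into dates, 43 with no length, 8 with unresolved digits, 61 whose digits did not match), and 21533 were kept. The digits of the authors' deposited mean normalized counts, another unit used for this check only, matched in 99.7% of 54481 comparisons within 0.001 on the log10 scale; a 10-fold shift of a whole gene would escape it. The authors' comparison tables also hold fold changes and p-values, which the authors made with DESeq2 (version not given in the sources used here) and which were not used.

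Limma 3.58.1 (R 4.3.3) was run on log2(RPKM + 1) for the 11011 genes averaging 0.5 RPKM or more, in a single fit of all 12 libraries with 6 residual degrees of freedom and a mean-variance trend, for 9 comparisons. P-values are two-sided and were adjusted over all tested genes by Benjamini-Hochberg, with a threshold of 0.05. Fold changes are on the log2(RPKM + 1) scale and understate changes of low genes. The script was tested on simulated data. The alternatives were a pseudocount of 0.1, no expression minimum, median-ratio scaling, quantile normalization, fits of 8 libraries, a replicate block, limma-voom on the recovered reads and leaving out each library. The 10 members and the pathway lists were chosen with earlier results of these data known. All members are named; of the pathway lists at most the 2 called genes with the largest change per list and comparison are named, with Cyr61 added. Comparisons with an inhibitor share the DMSO or DMSO + OHT libraries. Promoters are RefSeq windows on GRCm38.p6, matched by symbol.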

Additional observations from a re-analysis of the deposited data

How the results depend on the processing

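Of the 33 member results called over the 9 comparisons, 20 kept their call and direction in all alternatives run for them, among them Vgll4, Tead2 and Tead4 with VP and Tead4, Tead3, Lats2 and Nf2 with Y27, each with and without OHT. Of the 57 not called, 44 stayed so in all. Counts of members called changed as follows. With OHT in DMSO, 3 members passed, 1 with no expression minimum and 1 in the fit of the DMSO and Y27 libraries only, and 0 to 3 when a library was left out. With OHT in VP-treated cells 0 passed, and 1 with limma-voom. With OHT in Y27-treated cells 3 passed, 5 after median-ratio scaling and 6 after quantile normalization, and 1 to 3 when a library was left out. Leaving out a library gave 4 to 6 members in VP against DMSO, 4 to 5 in VP + OHT against DMSO + OHT, 7 to 8 in Y27 against DMSO, 5 to 6 in Y27 + OHT against DMSO + OHT, and 0 in both interactions and with OHT in VP-treated cells. No called change took the other sign in an alternative, while 20 of the 57 uncalled estimates did. In 1 of these the estimate with the other sign passed: with OHT in DMSO, Wwtr1 was at 0.01, and at -0.12 under quantile normalization (adjusted p = 0.024). A library left alone in its group was assumed to vary like the others. The cause of these shifts was not tested.

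Scaling moved the share of higher genes among all called genes: it was 33.9% for Y27 against DMSO but 46.9% under median-ratio scaling, 23.8% and 45.5% for Y27 + OHT against DMSO + OHT, 39.4% and 50.0% for VP + OHT against DMSO + OHT, and 70.5% and 49.7% for DMSO + OHT against DMSO. The median log2 change of all genes in Y27 + OHT against DMSO + OHT was -0.10, and 0.00 after that scaling. Counts over all genes were least stable for OHT in VP-treated cells (632, but 80 without VP + OHT replicate 2 and 204 without VP replicate 1) and for the interactions (442 with VP, 127 without VP + OHT replicate 1 and 1169 under quantile normalization; 8 with Y27, 56 under quantile normalization). For OHT in DMSO the count was 3760, and 2312 without DMSO replicate 2.

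The replicate numbers in the labels were not said to pair the libraries, and over 15 pairs of groups the deviations of same-numbered libraries correlated at -0.22 to 0.28, only 2 pairs above 0.1. With the replicate block 6, 6, 9 and 6 members were called in the 4 comparisons with an inhibitor, as without it, and 2 in place of 3 with OHT in DMSO, where Tead3 came to an adjusted p of 0.051.

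Depth limits Tead4 most, with 61 reads in the lowest Y27 library. Within a group the replicate libraries differed by more than read sampling (chi-square per degree of freedom 1.68 to 3.54). Each was counted as a library of its own, but this spread does not show whether they came from separate cultures.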
